A study of Ovis aries with 8 samples.

Results

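Secretory granules release insulin and glucagon when SNARE proteins on the granule and on the plasma membrane wind into 1 bundle and pull the membranes together. The genes described here encode that fusion machinery: the plasma-membrane SNAREs STX1A, STX4 and SNAP25, the granule SNAREs VAMP2 and VAMP8, the complexins CPLX1 and CPLX2, and NSF and NAPA, which take spent SNARE bundles apart. They were picked by name, with no cut on a measured value, and 7 of the 9 named genes have a row in the table of 25000 rows. VAMP2 and VAMP8 have no row under those symbols and were not analysed here. The table also holds 165 rows that merge several names and 6805 with an Ensembl identifier only, and none of these was used for them. All 7 passed the abundance filter, a mean of at least 1 FPKM over the 8 animals (fragments per kilobase of transcript and per unit of library depth), as did 13252 rows in all.

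Syntaxins and SNAP25 sit on the plasma membrane and contribute most of the helices of a SNARE bundle, and a vesicle SNARE of the VAMP family adds the last one. Complexins bind the partly zippered bundle and hold or promote fusion until calcium enters. After fusion, alpha-SNAP (the product of NAPA) recruits the ATPase NSF, which unwinds the bundle so that its parts can be used again. In beta cells, STX1A, SNAP25 and VAMP2 are the textbook set for calcium-triggered insulin release, and norepinephrine, acting through alpha-2 adrenergic receptors, is known to restrain that release at a step close to fusion.

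RNA was sequenced from hand-picked pancreatic islets of 8 singleton sheep fetuses of Columbia-Rambouillet crossbred ewes. In the NE-Infused group, 4 fetuses received Norepinephrine Bitartrate into a vein for 7 days, at 1 µg/min on day 1, 2 µg/min on days 2 to 4 and 4 µg/min on days 5 to 7. In the Saline-Control group, 4 fetuses received the diluent, saline with ascorbic acid. Islets came from NE-Infused fetuses at 137 to 139 days of gestation and from Saline-Control fetuses at 139 to 140 days, and each sample is a separate animal. Fetal weight was 2.8 to 3.7 kg in the NE-Infused group and 3.6 to 5 kg in the Saline-Control group. Gestational age and fetal weight therefore differed between the groups as well as the infusion, and weight was not used as a covariate. The ± values are SDs over n = 4 animals, and differences are in log2 of FPKM + 1, NE-Infused minus Saline-Control.

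Each animal carries a number beginning with 09 or 10, whose meaning the labels leave unsaid. NE-Infused animals 1, 3 and 4 and Saline-Control animal 2 are numbered 09, while NE-Infused animal 2 and Saline-Control animals 1, 3 and 4 are numbered 10. Summed FPKM was 773581 to 1075998 per NE-Infused library and 768021 to 1112624 per Saline-Control library, with the 4 libraries numbered 09 above the 4 numbered 10. Of 14 endocrine markers, 12 had a row, and together they summed to 10885 to 16880 FPKM in NE-Infused and 8120 to 13496 FPKM in Saline-Control islets; INS has no row and IAPP is listed at 0 in all 8 animals. Acinar markers (9 of 15 with a row, led by CPA1 and CPB1) summed to 129.6 to 904 FPKM in NE-Infused and 111 to 149 FPKM in Saline-Control islets. Because these are whole islets, fewer cells of a type and less RNA per cell cannot be told apart in any value below.

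The fusion genes covered a wide range of FPKM, and neighbours in the order of levels were not always separated. FPKM is divided by transcript length, so the order of different genes depends on the annotation, which the sources used here do not give. CPLX2 and NAPA were at the top, with means over the 8 animals of 204 ± 40.1 and 188 ± 34.6 FPKM (SD, n = 8). CPLX2 exceeded NAPA in 4 of 8 animals, so these 2 were not separated. NSF followed at 38.1 ± 5.43 FPKM and lay above SNAP25 in 8 of 8 animals. SNAP25 at 20.4 ± 7.86 FPKM and STX1A at 17.9 ± 6.59 FPKM were not separated either, SNAP25 being the higher in 4 of 8 animals. STX4, at 10.1 ± 1.85 FPKM, lay below STX1A in 6 of 8 animals, and CPLX1 was the lowest at 1.62 ± 1.45 FPKM.

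**Figure D1:**
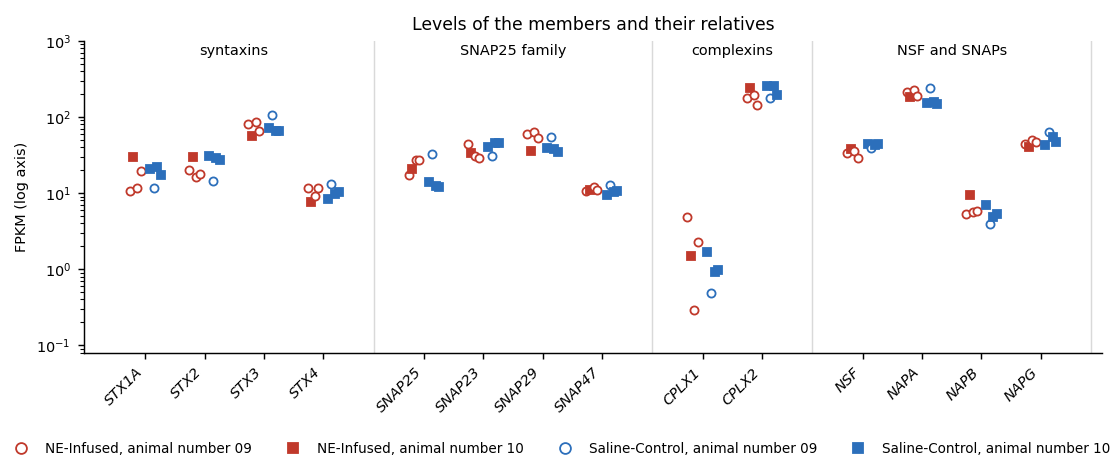
FPKM on a log axis of the members and their relatives, 1 point per animal, with NE-Infused animals (red) left of Saline-Control animals (blue) for each gene, open circles for animal numbers starting with 09 and filled squares for 10. STX3 lies above STX1A and SNAP29 above SNAP25 in 8 of 8 animals, and CPLX2 lies above CPLX1 in 8 of 8.

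Within each family, the textbook islet form did not always have the highest FPKM. These orders too depend on the annotated transcript lengths, and which cells of the islet samples carried each form was not tested. STX3, a syntaxin also placed on granule and plasma membranes, averaged 74.5 FPKM and exceeded STX1A in 8 of 8 animals, since STX1A was the higher in 0. SNAP23, the widely expressed relative of SNAP25, averaged 37.2 FPKM, and SNAP25 exceeded it in 1 of 8 animals. SNAP29, which acts in autophagy and membrane trafficking, averaged 47.1 FPKM, above SNAP25 in every animal. Among the alpha-SNAP relatives, NAPA stood far above NAPB, the brain form, at 5.87 FPKM, and above NAPG at 48.6 FPKM, in 8 of 8 animals each.

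NSF was the fusion gene whose 2 groups did not overlap. By limma, 0 of the 7 genes differed at an adjusted p under 0.05 over all 13252 genes, as did 0% of all genes tested. At an unadjusted p under 0.05 there was 1 of 7, where 7.36% of all genes reached that level (3.61% higher and 3.74% lower with norepinephrine). NSF was also the 1 of 7 whose groups did not overlap, where 4.23% of all genes did not, 2.35% with the NE-Infused group lower. With the number prefix in the model 0 of the 7 passed the adjusted threshold, where 0.00755% of all genes did. Among 7 genes, a single gene at such a level is close to that background. Means were higher with norepinephrine in 3 and lower in 4, with a median difference of -0.055 against 0.017 over all tested genes. The difference had the same sign within the 09 and within the 10 animals in 4 of 7 genes, where 55.5% of all genes did.

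**Figure D2:**
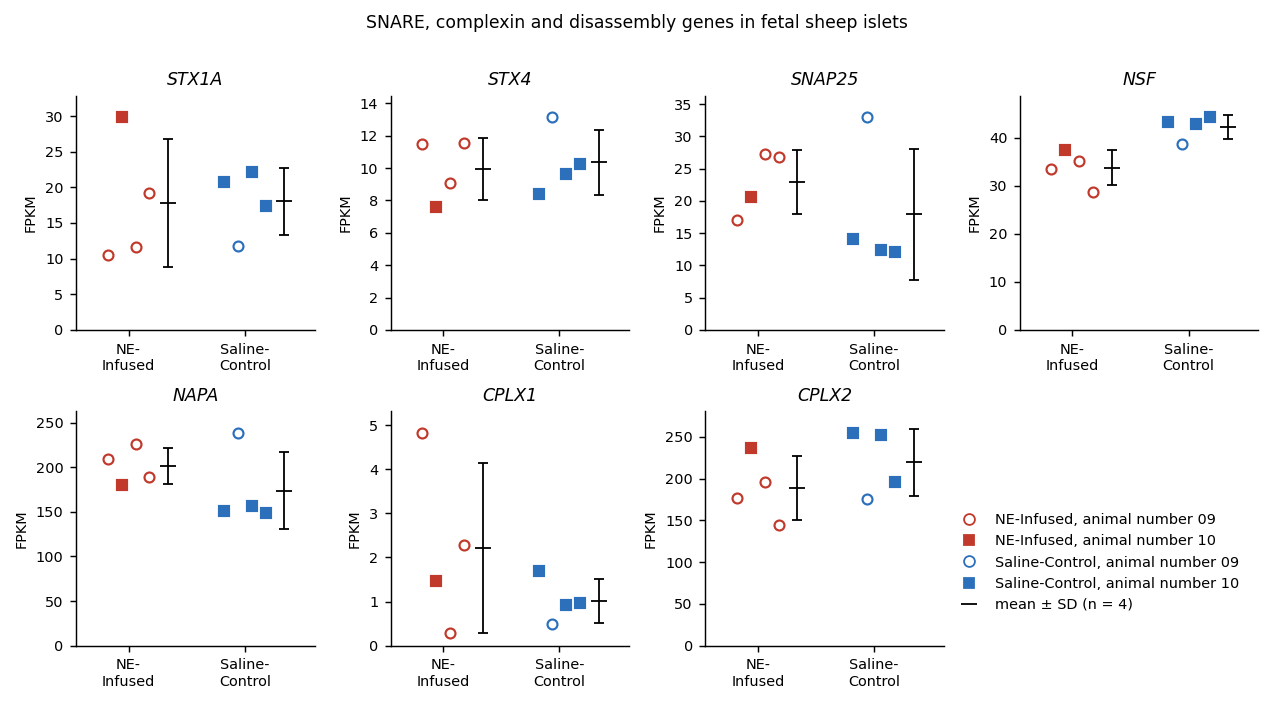
FPKM of the 7 genes in each animal, NE-Infused (red) left of Saline-Control (blue), with open circles for animal numbers starting with 09, filled squares for 10, and bars for the mean ± SD of 4 animals; axes start at 0. The 4 NE-Infused values of NSF, 28.8 to 37.4 FPKM, lie below the 4 Saline-Control values, 38.7 to 44.4 FPKM, and the other 6 genes overlap.

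STX1A, the syntaxin of calcium-triggered release (chromosome 24, 33475302 to 33484226 on Oar_v3.1), stood at 10.5, 29.9, 11.6 and 19.2 FPKM in NE-Infused animals 1 to 4 and at 20.8, 11.8, 22.2 and 17.3 FPKM in Saline-Control animals 1 to 4. The highest value and the 2 lowest were all in NE-Infused islets, so the groups overlapped. Means were 17.8 ± 8.93 and 18.0 ± 4.64 FPKM, a difference of -0.096 with a 95% interval of -0.83 to 0.63 (limma adjusted p = 0.952). Within the 09 animals it was 0.16, within the 10 animals 0.56, and with the number prefix in the model 0.36. The pooled sign is thus opposite to the sign within both number groups. An interval this wide leaves room for a change of either direction.

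STX4, the syntaxin linked in rodents to sustained insulin release and to granules that arrive late (chromosome 24, 27146500 to 27154401), was steadier. It stood at 11.5, 7.60, 9.10 and 11.6 FPKM in NE-Infused animals and at 8.37, 13.2, 9.64 and 10.2 FPKM in Saline-Control animals, and the control range enclosed the infused one but for NE-Infused 2. Means were 9.94 ± 1.94 and 10.4 ± 2.03 FPKM, a difference of -0.055 with an interval of -0.47 to 0.36 (limma adjusted p = 0.952). Within the number groups STX4 was lower with norepinephrine in both, by -0.28 in 09 and -0.27 in 10. With gestational age as a covariate the STX4 difference was -0.48 (limma unadjusted p = 0.0452, adjusted p = 0.619). In that fit 1048 of 13252 genes had an unadjusted p under 0.05.

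SNAP25, which supplies a pair of helices to the bundle (chromosome 13, 3001920 to 3039324), had differences of opposite sign in the 2 number groups. The pooled sign was that of the 10 animals. It stood at 17.0, 20.7, 27.3 and 26.8 FPKM in NE-Infused animals and at 14.1, 33.0, 12.4 and 12.0 FPKM in Saline-Control animals. All 4 NE-Infused values lay above 3 of the 4 controls and below Saline-Control 2, the only control numbered 09. The pooled difference was 0.44, with an interval of -0.25 to 1.14 (limma adjusted p = 0.773). Without Saline-Control 2 it was 0.77 (limma adjusted p = 0.204, unadjusted p = 0.00299). In that fit 2201 of 13252 genes had an unadjusted p under 0.05, and all controls left were numbered 10. Within the 09 animals the SNAP25 difference was -0.49, and within the 10 animals 0.65. The test of that contrast, an interaction of 1.14 (SE 0.40), did not pass over all genes (limma adjusted p = 0.848, unadjusted p = 0.0258), where 5.61% of all genes had an unadjusted p under 0.05. With the number prefix in the model the norepinephrine difference was 0.077.

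**Figure D3:**
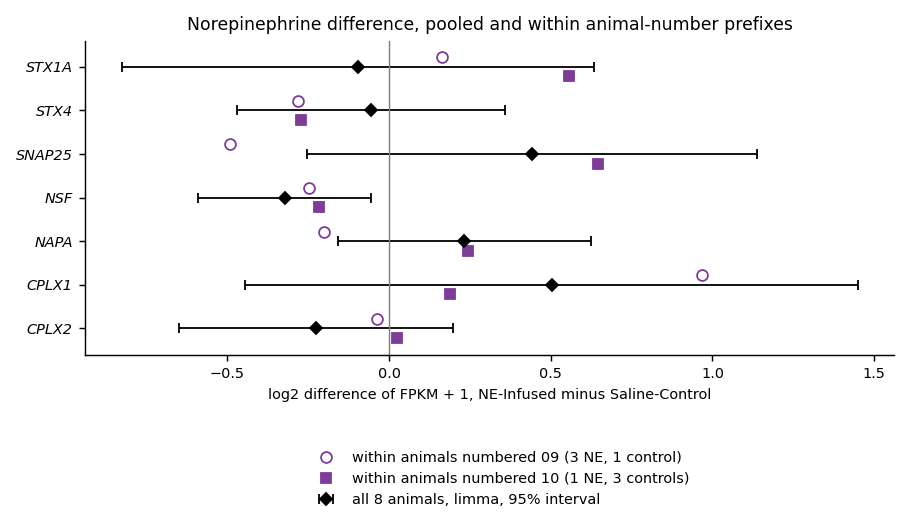
The log2 difference of FPKM + 1, NE-Infused minus Saline-Control, for each gene. Black diamonds with bars give the limma estimate over 8 animals with its 95% interval, open circles the difference within animals numbered 09 (3 NE-Infused, 1 control), and filled squares that within animals numbered 10 (1 NE-Infused, 3 controls). NSF lies left of 0 in all 3, from -0.32 to -0.22, a sign fixed by its groups not overlapping. SNAP25 and NAPA lie on opposite sides of 0 within the number groups.

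NSF, the ATPase that recycles SNAREs (chromosome 11, 44865117 to 44995248), stood at 33.6, 37.4, 35.2 and 28.8 FPKM in NE-Infused animals and at 43.4, 38.7, 43.0 and 44.4 FPKM in Saline-Control animals. The lowest control, animal 2, was 38.7 FPKM and the highest infused animal, animal 2, was 37.4 FPKM, so the groups were separate by a narrow margin. Means were 33.8 ± 3.64 and 42.4 ± 2.52 FPKM, a difference of -0.32 (SE 0.12, 95% interval -0.59 to -0.056). This did not pass over all genes (limma adjusted p = 0.597, unadjusted p = 0.0228), and NSF ranked 497 of 13252 genes by p. NSF was lower in both number groups, by -0.25 in 09 and -0.22 in 10, and by -0.23 with the prefix in the model (limma unadjusted p = 0.0574). Because the groups do not overlap, any split of the animals gives a lower value in both parts. The shared sign within the number groups therefore adds nothing to the separation itself.

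The NSF difference remained below 0 in each of the settings tried, but its size moved with age. With gestational age as a covariate it was -0.085, and with the mean of acinar markers as a covariate it was -0.24. NE-Infused fetuses were 137 to 139 days old, against 139 to 140 days in the Saline-Control group, and the effects of age and infusion on NSF cannot be told apart with 4 animals a group. Leaving out 1 animal at a time, which cannot turn the sign of separate groups, gave -0.37 to -0.25. Without NE-Infused 4 or Saline-Control 1, 3 or 4 the unadjusted p was over 0.05 (limma, 0.0508 to 0.0570).

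NAPA, which encodes alpha-SNAP (chromosome 14, 53519830 to 53545156), had a higher mean in the NE-Infused group, where NSF had a lower one. It stood at 209.6, 181, 226 and 189 FPKM in NE-Infused animals and at 151, 239, 157 and 149 FPKM in Saline-Control animals. As for SNAP25, every infused animal lay between Saline-Control 2 and the other controls. Means were 201 ± 20.5 and 174 ± 43.4 FPKM, a difference of 0.23 with an interval of -0.16 to 0.62 (limma adjusted p = 0.777). It was 0.39 without Saline-Control 2 (limma adjusted p = 0.233), where all controls left were numbered 10. Within the 09 animals it was -0.20 and within the 10 animals 0.24, an interaction of 0.45 that did not pass (limma unadjusted p = 0.0531, adjusted p = 0.848). With the prefix in the model it was 0.022, and with the acinar mean as a covariate 0.019.

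Of the complexins, CPLX1 (chromosome 6, 116657195 to 116664093) was at 4.83, 1.47, 0.293 and 2.29 FPKM in NE-Infused animals and at 1.69, 0.492, 0.916 and 0.975 FPKM in Saline-Control animals. NE-Infused animals held both the highest and the lowest value, and the coefficient of variation over the 8 animals was 89.5%, the greatest of the 7 genes. The difference was 0.50 with an interval of -0.44 to 1.45 (limma adjusted p = 0.781), and it was 0.15 without NE-Infused 1, 0.87 without NE-Infused 3 and 0.021 with gestational age as a covariate. At this abundance the + 1 in the log scale shrinks differences.

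CPLX2, the complexin with the higher FPKM, is listed at a locus of 1322 bases on chromosome 7 (5050029 to 5051350), against 6899 bases for CPLX1. Whether that locus covers the whole transcript was not tested, and since FPKM is divided by transcript length, the level of CPLX2, its rank and its ratio to CPLX1 depend on it. It stood at 176, 237, 196 and 145 FPKM in NE-Infused animals and at 255, 176, 253 and 197 FPKM in Saline-Control animals. Means were 189 ± 38.4 and 220.0 ± 40.1 FPKM, a difference of -0.23 with an interval of -0.65 to 0.20 (limma adjusted p = 0.780). Leaving out 1 animal gave -0.34 (without NE-Infused 2) to -0.11 (without NE-Infused 4), and without Saline-Control 1 or 3 it was -0.15. Within the number groups the difference was near 0, at -0.037 in 09 and 0.023 in 10, and it was -0.0067 with the prefix in the model.

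A ratio of the FPKM of 2 genes within an animal does not depend on how libraries were scaled. The tests added 1 to each FPKM, which brings back some dependence where a gene is low, as CPLX1 was. In all, 3 ratios were compared between the groups. The fourth, VAMP2 over VAMP8, could not be formed. The ratio of NSF to NAPA, the ATPase and its adaptor, was 0.160, 0.207, 0.156 and 0.153 in NE-Infused animals and 0.287, 0.162, 0.275 and 0.298 in Saline-Control animals. NE-Infused 1, 3 and 4 lay below all controls, and Saline-Control 2 lay among the infused ones. On the log2 scale of FPKM + 1 the means were -2.54 ± 0.20 and -1.98 ± 0.41, a difference of -0.56 (two-sided exact permutation p = 0.0571, adjusted over the 3 ratios p = 0.171; the smallest p of this test is 0.0286). Within the 09 animals it was -0.045, and within the 10 animals -0.46.

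**Figure D4:**
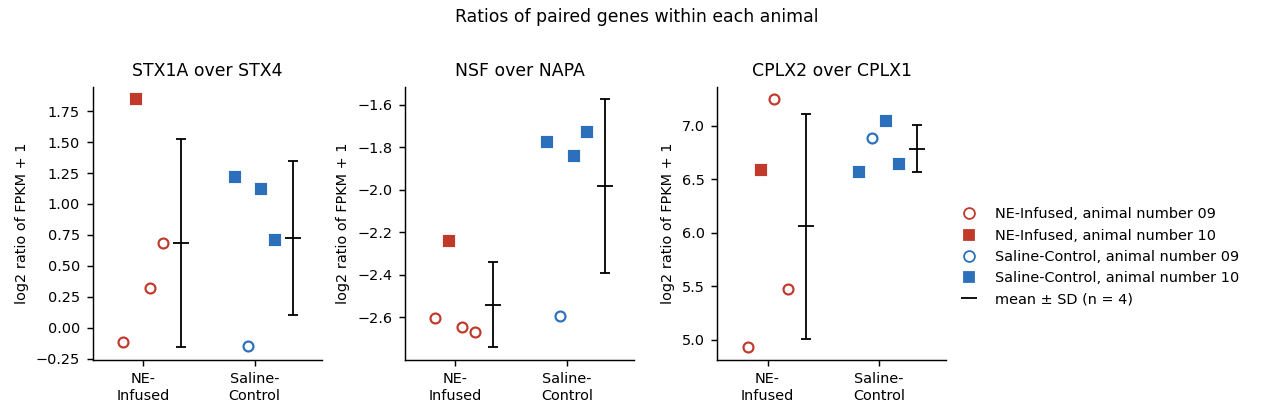
Log2 ratios of FPKM + 1 of paired genes within each animal, NE-Infused (red) left of Saline-Control (blue), open circles for animal numbers starting with 09, filled squares for 10, and bars for the mean ± SD of 4 animals; the axes do not start at 0. For NSF over NAPA the 4 animals numbered 09, of both groups, lie together between -2.67 and -2.59.

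The ratio of STX1A to STX4 on the same log2 scale was 0.68 ± 0.84 in NE-Infused and 0.72 ± 0.62 in Saline-Control animals, a difference of -0.041 (exact permutation p = 0.943, adjusted p = 0.943). The ratio of CPLX2 to CPLX1 was 6.06 ± 1.05 and 6.79 ± 0.22, a difference of -0.73 (exact permutation p = 0.314, adjusted p = 0.471). It was -1.0 within the 09 animals and -0.16 within the 10 animals, and it ran from -1.12 without NE-Infused 3 to -0.35 without NE-Infused 1. In FPKM, CPLX2 was 36.5 to 668 times CPLX1 in NE-Infused and 151 to 357 times in Saline-Control animals. Among the infused animals 2 lay below and 1 above every control, a wider scatter whose difference was not tested.

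The fusion genes were also compared between the animal numbers. With treatment in the model, STX1A was higher in animals numbered 10, at 22.5 ± 5.30 FPKM, than in those numbered 09, at 13.3 ± 3.97 FPKM, which is 0.91 on the log2 scale (SE 0.23, limma adjusted p = 0.0336). It was the 1 of 7 genes past the threshold, where 16.5% of all genes passed. The call did not hold without NE-Infused 2 or 3 or without Saline-Control 1, 2, 3 or 4 (limma adjusted p = 0.0513 to 0.209), although the difference stayed between 0.72 and 1.11. SNAP25 leaned the other way, at 14.8 ± 4.01 FPKM in 10 and 26.0 ± 6.66 FPKM in 09 (log2 -0.73, limma adjusted p = 0.104), as did NAPA, at 159 ± 14.5 FPKM in 10 and 216 ± 21.6 FPKM in 09 (log2 -0.42, limma adjusted p = 0.0522). CPLX2 was at 235 ± 27.1 FPKM in 10 and 173 ± 20.9 FPKM in 09 (log2 0.44, limma adjusted p = 0.0768).

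The number groups did not overlap in 2 of the 7 genes, NAPA and CPLX2, where 25.4% of all genes did not. Because library totals also differ between the numbers, these values depend on scaling. With equal library totals the median of all genes moved to 0.31, against -0.088 as deposited. On that scale NAPA stood at 0.027, STX1A at 1.34, CPLX2 at 0.89 and NSF at 0.62. SNAP25 stood at -0.30 (limma adjusted p = 0.414), STX4 at -0.033 (limma adjusted p = 0.880) and CPLX1 at 0.38. STX1A was therefore above the median of all genes on either scale. What the number prefix stands for was not tested.

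The wider fusion machinery was described through 61 further genes in 4 lists, of which 53 had a row and 48 were tested. By limma 0 of the 48 passed over all genes. At an unadjusted p under 0.05 there were 4 (8.33%), against 7.36% of all genes, 1 higher and 3 lower with norepinephrine. The median difference was -0.075, with 19 means higher and 29 lower, and with equal library totals the median of all genes itself moved to -0.12.

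**Figure D5:**
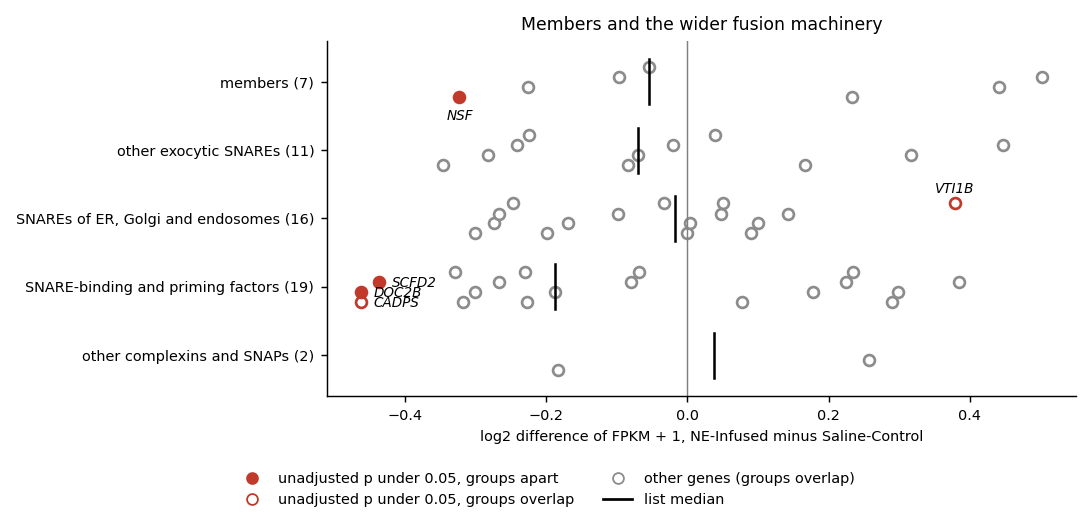
Log2 difference of FPKM + 1, NE-Infused minus Saline-Control, for the 7 members and for 48 genes of the wider fusion machinery, 1 point per gene, with list medians as black lines and the number of genes in brackets. Genes with an unadjusted limma p under 0.05 are red and named, filled where the 2 groups of 4 animals do not overlap; none passed after adjustment.

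The 3 lower genes were all among the 19 tested SNARE-binding and priming factors, where 3.74% of all genes were lower at that level. The median of this list was -0.19, with 7 means higher and 12 lower, but it was -0.040 within the 09 animals and 0.15 within the 10 animals. CADPS, the priming factor CAPS1 of dense-core granules, stood at 26.2, 30.2, 34.5 and 22.2 FPKM in NE-Infused animals and at 42.5, 39.1, 39.9 and 34.3 FPKM in Saline-Control animals, a difference of -0.46 (SE 0.15, limma unadjusted p = 0.0134, adjusted p = 0.574). Only NE-Infused 3 reached into the control range. DOC2B, a calcium sensor that binds SNAREs and is needed for normal insulin release in mice, stood at 27.3, 23.5, 25.7 and 15.1 FPKM in NE-Infused animals and at 33.4, 30.3, 28.5 and 32.8 FPKM in Saline-Control animals, with no overlap (difference -0.46, SE 0.18, limma unadjusted p = 0.0308, adjusted p = 0.635).

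SCFD2, a member of the Sec1 family of proteins that bind syntaxins, stood at 9.12, 10.5, 9.69 and 8.20 FPKM in NE-Infused animals and at 13.9, 13.4, 12.7 and 12.1 FPKM in Saline-Control animals. Its groups were also separate, with a difference of -0.44 (SE 0.13, limma unadjusted p = 0.00732, adjusted p = 0.523). Of the 48 tested genes in the 4 lists, 2 had groups without overlap, where 4.23% of all genes did. CADPS, DOC2B and SCFD2, like NSF, were lower within both number groups. In 09 and 10 in turn the differences were -0.51 and -0.35 for CADPS, -0.44 and -0.41 for DOC2B, and -0.53 and -0.27 for SCFD2. For DOC2B, SCFD2 and NSF the shared sign is fixed, since groups without overlap give it in any split of the animals. CADPS was named for an unadjusted p over the same 8 animals, so its shared sign is partly built in. Of all genes, 55.5% had the same sign within both number groups. With gestational age as a covariate the differences were -0.15 for CADPS, -0.10 for DOC2B and -0.29 for SCFD2.

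Among the 16 tested SNAREs of the endoplasmic reticulum, Golgi and endosomes the median was -0.017. VTI1B, an endosomal SNARE, was the gene there with an unadjusted p under 0.05, at 230.1 ± 27.0 FPKM in NE-Infused and 178 ± 34.0 FPKM in Saline-Control islets (difference 0.38, SE 0.16, limma adjusted p = 0.663). The VTI1B difference was 0.085 within the 09 animals and 0.25 within the 10 animals, and 0.13 with gestational age or with the acinar mean as a covariate. Like SNAP25 and NAPA, it was high in Saline-Control 2, at 229 FPKM, within the infused range of 192 to 253 FPKM.

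None of the 11 tested other exocytic SNAREs had an unadjusted limma p under 0.05, and their median was -0.070. The most abundant were VAMP4, a vesicle SNARE of the trans-Golgi network, at 91.7 ± 9.28 FPKM in NE-Infused and 81.6 ± 9.66 FPKM in Saline-Control islets, and STX3, at 72.4 ± 13.7 and 76.6 ± 19.5 FPKM. Of the other complexins and SNAPs, NAPG stood at 45.3 ± 3.88 FPKM in NE-Infused and 51.9 ± 8.70 FPKM in Saline-Control islets and NAPB at 6.50 ± 1.89 and 5.24 ± 1.30 FPKM. CPLX4 is listed at 0 in all 8 animals, and CPLX3 has no row under that symbol alone.

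Markers of other cell types were set beside these values, since neurons and exocrine cells use many of the same SNAREs. Of 15 neuronal and Schwann-cell markers, 10 had a row, and they summed to 86.3 to 139.9 FPKM in NE-Infused and 119 to 162 FPKM in Saline-Control islets. Of these, NEFM, a neurofilament gene, and ELAVL4, a neuronal RNA-binding protein, were the most abundant. Of the 5 that were tested, 2 had a higher and 3 a lower mean in the NE-Infused group. The median of the 5 differences was -0.091, at 0.037 within the 09 animals and -0.22 within the 10 animals. NEFM had the lower mean without overlap (40.3 FPKM on average, against 56.4 FPKM; difference -0.52, limma adjusted p = 0.643). It was the 1 of 5 without overlap, where 4.23% of all genes had none. RBFOX3, a defining marker of mature neurons, averaged 0.292 FPKM, while SYN1 and SOX10 of the same list averaged 26.6 and 8.64 FPKM.

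Markers of other cell types were summed and tested in the same way. Duct markers (5 of 6 with a row) summed to 163 to 432 FPKM in NE-Infused and 103 to 192 FPKM in Saline-Control islets, with KRT7 different by 0.99 (limma unadjusted p = 0.0247) and MUC1 by 0.98 (limma unadjusted p = 0.0387). All 6 tested acinar markers had a higher mean in the NE-Infused group, with CPB1, a digestive protease, different by 2.08. CPB1 was the 1 of 6 without overlap, where 4.23% of all genes had none. The median of the acinar list was 1.37, at 1.81 within the 09 animals and -0.56 within the 10 animals. All 11 tested endocrine markers also had a higher mean, with SST, the hormone of delta cells, different by 1.73 (limma unadjusted p = 0.0286). The median of the endocrine list was 0.29, at 0.21 within the 09 animals and 0.50 within the 10 animals. CHGA and SCG5, its most abundant genes, were at -0.29 and -0.28 within the 09 animals, and at 0.38 and 0.17 within the 10 animals. With the prefix in the model CHGA was at 0.044 and SCG5 at -0.056.

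The 5 tested endothelial markers all had a lower mean, with a median of -0.23, and summed to 52.8 to 116 FPKM in NE-Infused and 84.5 to 118 FPKM in Saline-Control islets. Stromal markers summed to 303 to 1772 FPKM in NE-Infused and 436 to 711 FPKM in Saline-Control islets, and leukocyte markers to 118 to 179 and 107 to 159 FPKM. By limma none of these markers passed after adjustment. The part of any of these cell types in the values of the fusion genes was not tested, beyond the acinar covariate given above.

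The genes with profiles over the 8 animals nearest to each fusion gene were found among 11362 named genes, by Euclidean distance of centred log2 values. KLHDC1, at 0.080, and ARHGAP1, at 0.16, were nearest to NSF, whose own spread about its mean was 0.55. RTN1 (0.18) and PCNX (0.18) were nearest to CPLX2, RTN3 (0.17) and MTIF3 (0.20) to NAPA, and CEBPB (0.18) and MORN4 (0.20) to STX4. ERMARD (0.30) and SLC25A20 (0.36) were nearest to SNAP25, TPPP (0.45) and KIAA1841 (0.48) to STX1A, and P2RY6 (0.67) and FGF1 (0.87) to CPLX1. Among the fusion genes themselves the closest pair was CPLX2 and NSF, at 0.49. No fusion gene was as near to another as to the genes named above. A search of 11362 genes nearly always finds a nearer profile than a search of a few, so nothing follows about shared variation of the fusion genes.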

How the data were processed

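The members and gene lists were chosen with earlier results of these data known. The deposited table gives FPKM per gene and animal, made by the authors; the submitters' processing notes name the build Oar_v3.1, TopHat2 2.0.1, Cufflinks 2.1.1 and Cuffdiff. The sources used here do not give the annotation or filters. The mRNA-selected libraries were made with a kit for 100 bp paired ends (per the labels' protocols). No column was left out. Values were taken as log2(FPKM + 1), which understates changes of low genes, and rows with a mean of at least 1 FPKM were tested (13252). Groups were compared by limma 3.58.1 in R 4.3.3 (eBayes with trend, two-sided, Benjamini-Hochberg, threshold 0.05), tested on simulated data; ratios by an exact permutation test in scipy 1.17.1. No gene reported here has more than 1 row. Locus starts were raised by 1 to count from 1.

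Counts were not used. Steps of single fragments in low genes gave relative depths against Saline-Control 1 of 0.647 (NE-Infused 1), 1.01 (NE-Infused 2), 0.726 (NE-Infused 3), 1.17 (Saline-Control 3) and 1.08 (Saline-Control 4); NE-Infused 4 and Saline-Control 2 shared no clear step, so no counting interval was computed. The named genes are the 9 members, genes of each pathway list with an unadjusted p under 0.05 or otherwise its 2 most abundant, the 2 nearest profiles per member, and leading markers. Other relatives (SNAP23, SNAP29), CPLX3, CPLX4 and RBFOX3 were named after their values were seen. Alternatives were another pseudocount, filter, scaling, covariate, block, or 1 animal less. Sequences of these genes were not used here.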

Additional observations from a re-analysis of the deposited data

Results flagged for a closer look

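Chance flags about 1 in 20 groups, and 20 groups of 4 animals were checked here, with 4 flags, 3 of them in Saline-Control 2, the control numbered 09. SNAP25 at 33.03 FPKM in Saline-Control 2 lay far above the other 3 controls (12.0 to 14.1 FPKM). NAPA at 238.7 FPKM in the same animal lay far above the others (149 to 157 FPKM). The log2 ratio of NSF to NAPA in Saline-Control 2, -2.595, lay far below the other controls. In the infused group the same ratio stood apart in NE-Infused 2, the infused animal numbered 10, at -2.241.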

How the results depend on the processing

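Over the alternatives run, no fusion gene passed the adjusted threshold between the treatment groups, and NSF, NAPA and CPLX1 kept the sign of their difference, though NAPA came to 0.022 with the prefix and 0.019 with the acinar mean, and CPLX1 to 0.021 with gestational age. STX1A turned to 0.36 with the prefix as a covariate, 0.20 with gestational age and 0.68 with the acinar mean. The last had a limma unadjusted p of 0.0413 (adjusted p = 0.939), in a fit where 687 of 13252 genes were under 0.05 unadjusted. SNAP25 turned to -0.014 and CPLX2 to 0.24 with gestational age, and CPLX2 to 0.0030 with the acinar mean. The cause of these turns was not tested. Leaving out 1 animal gave STX1A -0.37 to 0.10 (positive without NE-Infused 1, NE-Infused 3 or Saline-Control 3) and STX4 -0.14 to 0.057 (positive without NE-Infused 2 or Saline-Control 2). The ratio of STX1A to STX4 differed by -0.43 to 0.23 with 1 animal left out, and by 0.45 within 09 and 0.83 within 10; that of NSF to NAPA by -0.045 within 09.

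Genes past the adjusted threshold numbered 0, but 1 with equal library totals, 1 with the prefix, and 0 to 2 with 1 animal left out. With p unadjusted under 0.05 the count was 975, but 1552 with the prefix, 646 with the replicate block and 595 (without Saline-Control 3) to 2201 (without Saline-Control 2) with 1 animal left out; without NE-Infused 2 there were 1517. With equal library totals 22.3% of these were higher, against 49.1%. Same-numbered animals of the 2 groups share only a number (correlations of their deviations -0.38 to 0.093), and with the replicate block the NSF difference kept its value, -0.32, at an unadjusted p of 0.0850 by limma.

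Between numbers 10 and 09, 2187 genes passed, 4346 with equal library totals and 18 (without Saline-Control 2) to 2280 with 1 animal left out. With equal totals CPLX2 (0.89) and NSF (0.62) passed and NAPA turned to 0.027. With 1 animal left out STX1A gave 0.72 to 1.11, CPLX1 -0.24 to 0.54, SNAP25 -1.30 to -0.16, passing without NE-Infused 1, STX4 -0.49 to -0.41, passing without NE-Infused 3, and NAPA -0.65 to -0.20, passing without NE-Infused 2 or 4. The interaction was called in 16 genes, in 5 with a pseudocount of 0.1 and in 4 with a mean of at least 5 FPKM. VAMP2 over VAMP8 was not run, and depth is known only in relative terms.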
